A study of Mus musculus with 13 samples.

Results

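The 83 genes described here encode the cytosolic ribosomal proteins, and what was measured is ESR1 (estrogen receptor alpha) binding at their promoters. They were chosen by name from the 21938 protein-coding genes of GENCODE vM21 on mm10. A member had the symbol Rpl or Rps followed by a number, with an optional closing letter or paralog mark, or was 1 of the stalk genes Rplp0, Rplp1 and Rplp2. Kinases, pseudogenes and names ending in -ps were left out. A member had a promoter peak in a library when a peak summit lay within 1000 bp of the transcription start site (TSS) of any of its basic transcripts, and its best-ranked such peak gave its values. The naming rule used no measured value, but it was chosen with earlier results of these data known. Of the 83 genes, 31 encode small-subunit and 52 encode large-subunit proteins.

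The cytosolic ribosome joins a small subunit, which reads the mRNA, and a large subunit, which forms the peptide bonds. Cells make its proteins in near-equal amounts, and the promoters of these genes are open and active in nearly every cell type, which is why they are often used as examples of housekeeping promoters. Many of their mRNAs begin with a run of pyrimidines, the 5′ terminal oligopyrimidine (TOP) tract, through which their translation follows growth signals. ESR1 is a nuclear receptor that binds DNA, typically at distal enhancers and through an estrogen response element (ERE), after estradiol (E2) enters the cell.

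The cells were primary fibroblasts from the lower abdominal muscle of male Aromhum mice, which carry the human aromatase gene and so make excess E2. All cultures, vehicle controls included, carried this genotype, were passaged once and were starved of serum overnight. The treatments were vehicle (ethanol and DMSO), E2 at 10 nM, fulvestrant at 100 nM, and both agents at these doses. Fulvestrant is an ESR1 antagonist that also degrades the receptor. Fulvestrant or DMSO was given for 3 hours before E2 or ethanol was added for 1 hour. Each treatment had 3 libraries, each with its own MACS2 peak list. The sources used here do not say whether these came from separate mice or cultures, so p-values measure only the spread between libraries. The input sample was not analysed here, so enrichment at these promoters without the antibody was not measured.

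The lists held 34293 to 104571 peaks. Read totals are not in them. Under the Poisson model of the caller, fold and p-value give back the fragments at a summit and the local background, and the fragments came out within 0.1 of a whole number for 100% of the 2000 peaks tested in each library. The smallest local background was 3.22 to 3.79 fragments in 10 libraries, 1.41 in E2 replicate 1 and 2.87 in fulvestrant replicate 2. In the same pair of libraries 59.4% and 27.9% of peaks had summits in repeat-masked sequence, against 5.57% to 7.79% in the other 10. Of 6 fibroblast markers, Pdgfra, Col1a1 and Col1a2 had a promoter peak in all 12 libraries, Col3a1 and Dcn in 11 each and Thy1 in 6. By contrast, the myogenic markers Myod1, Myf5 and Myog had none and Pax7 had 1 in a single library.

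Nearly every ribosomal protein promoter carried a peak, with or without E2. A peak was present in all 12 libraries at 67 of 83 members (80.7%), against 27.3% of all protein-coding promoters, and 80 had a peak in at least 1 library. Leaving out E2 replicate 1, whose list lacked 11 members that had a peak elsewhere, 76 members had a peak in all 11 remaining libraries, against a background of 29.5%. By subunit, 27 of 31 small-subunit genes and 40 of 52 large-subunit genes had a peak in all 12 lists.

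The 3 members without a peak in any library were Rpl3l, Rpl10l and Rpl39l (3.61% of members, against 31.7% of all promoters). Each is a paralog of a general ribosomal protein. Rpl3l is known for expression in striated muscle, and Rpl10l and Rpl39l for expression in testis. Their general counterparts did carry peaks. Rpl3 had a peak in 11 lists and missed E2 replicate 1. Rpl39 did the same. Rpl10 had a peak in 10 lists, missing E2 replicate 1 and fulvestrant replicate 2.

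The other 4 paralogs had peaks. Rps27l, the paralog of Rps27 that is known as a p53 target, had a peak in all 12 lists with a fold of 5.04 to 10.7 and a mean rank percentile of 2.73. The rank percentile places the peak in its own list by −log10 p, with 0 at the top, and a missing peak counts as 100. Rps27 itself had a mean of 15.9. Rpl36al, the paralog of Rpl36a, had a mean of 23.4, and Rpl22l1, the paralog of Rpl22, had a mean of 31.7. Rpl7l1 had peaks in 9 lists and was missing from vehicle replicate 3, E2 replicate 1 and E2 plus fulvestrant replicate 1. Its summits lay at 660 to 727 bp from the TSS in 3 of the 9 and at 136 to 195 bp in the other 6.

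Of the remaining members without a full set, 11 had a peak in 11 lists. In 9 of them the missing list was E2 replicate 1, namely Rpl3, Rpl4, Rpl23a, Rpl36a, Rpl39, Rpl41, Rps9, Rps12 and Rps26. Rps28 had no peak in E2 plus fulvestrant replicate 1, and Rpl10a had none in E2 plus fulvestrant replicate 3. None of the 80 members with a peak lacked it in more than 1 library of a treatment.

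**Figure D1:**
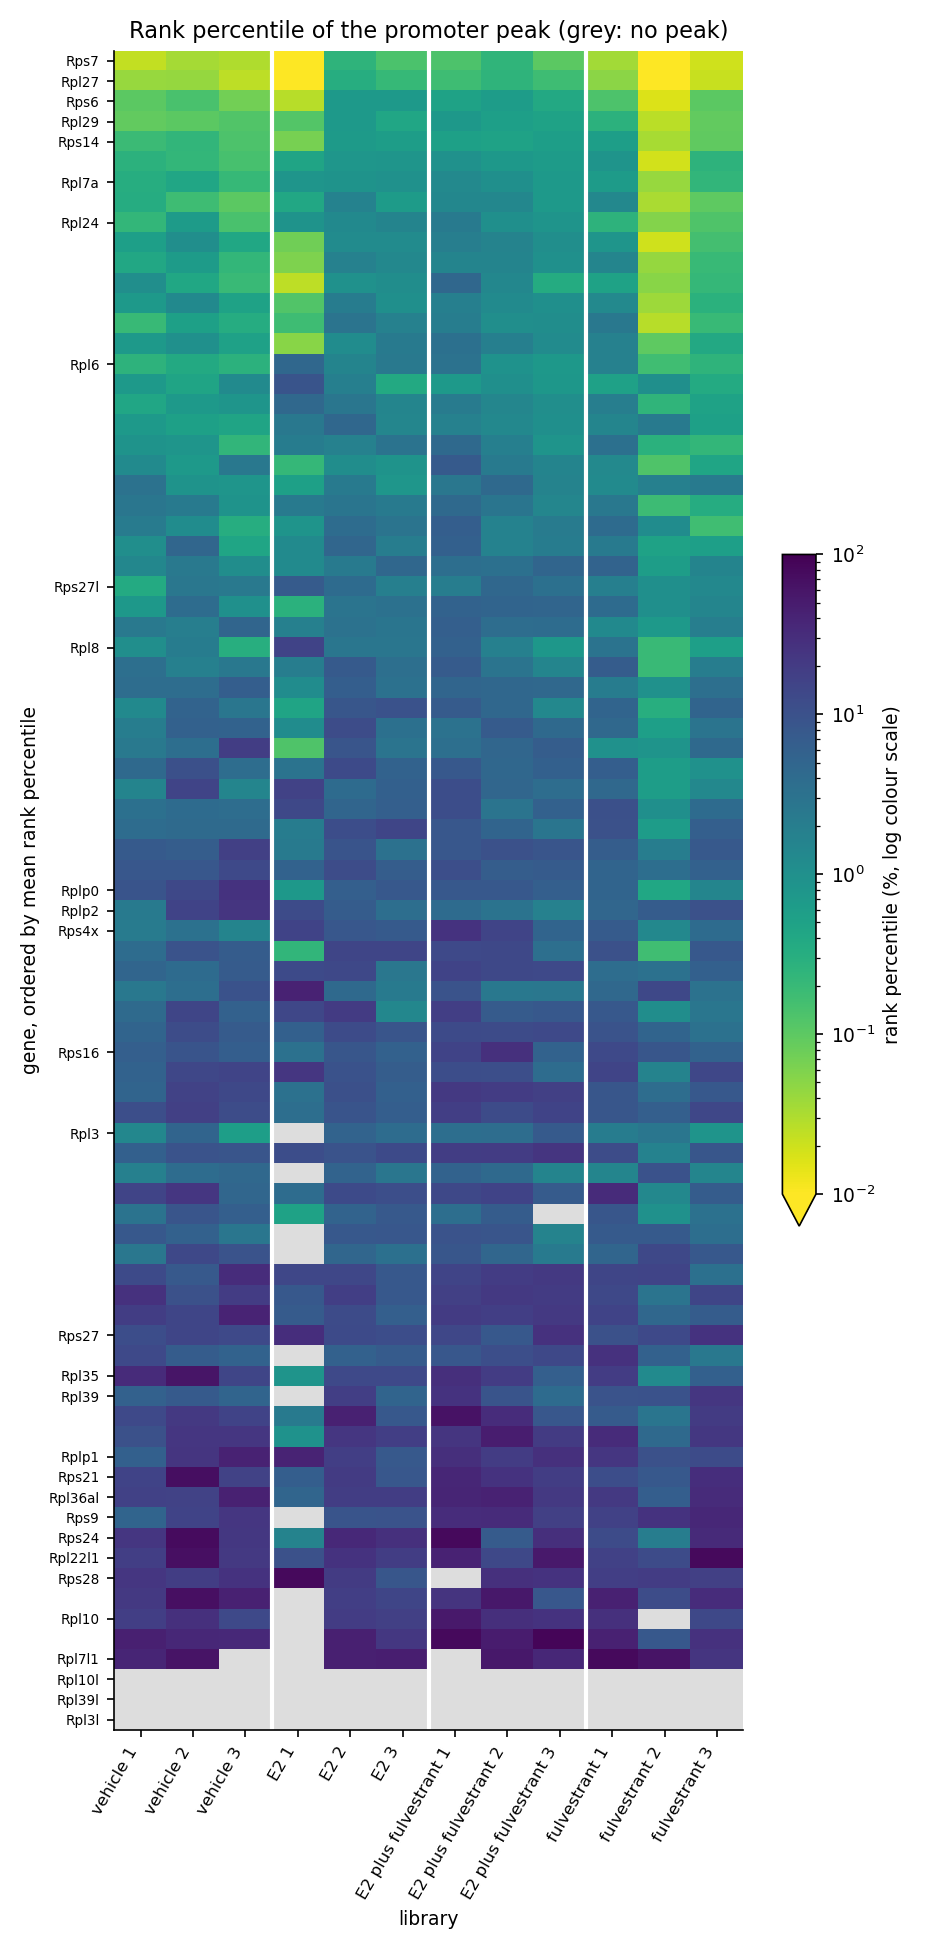
Rank percentile of the promoter peak of each of the 83 genes (rows, ordered by the mean over libraries, with labels for genes whose values the text gives) in each of the 12 libraries (columns), on a log colour scale that ends at 0.01%, with grey where there was no peak. Grey cells gather in the column of E2 replicate 1 and in the rows of Rpl3l, Rpl10l and Rpl39l, and the top rows are paler, that is better ranked, in vehicle and fulvestrant than in E2 replicates 2 and 3.

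Peaks at these promoters stood near the top of their lists. The mean rank percentile over 12 libraries was under 1 for 13 members (15.7%), against 0.356% of all promoters, and under 10 for 50 members (60.2%), against 10.7%. With a peak missing counted as 100, the median member lay at 3.33, 5.65 and 5.14 in vehicle, 3.26, 7.42 and 4.65 with E2, 8.16, 5.09 and 4.53 under E2 plus fulvestrant, and 5.17, 1.24 and 3.21 with fulvestrant. The median protein-coding promoter with a peak lay at 9.47 to 22.6. The median fold of member peaks was 4.31 to 14.5 per library, where 14.5 belonged to E2 replicate 1 and 8.68 to fulvestrant replicate 2, and the other 10 libraries reached at most 6.92.

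**Figure D2:**
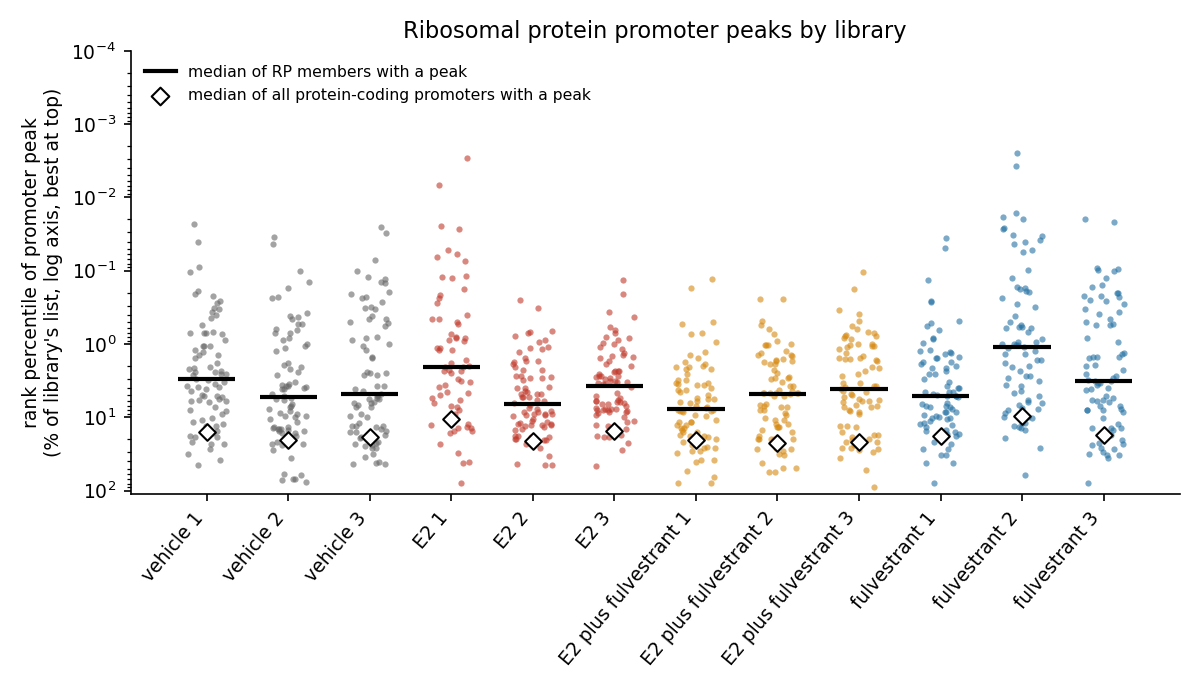
Rank percentile of each member's promoter peak (points, log axis with the best rank at the top) in the 12 libraries, with the median of the members that had a peak (bar) and the median of all protein-coding promoters with a peak (diamond). The bar lies above the diamond in every library, and the best points lie higher in vehicle and fulvestrant than in E2 replicates 2 and 3 and E2 plus fulvestrant.

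Rps7, a small-subunit protein gene on chromosome 12 (28630854 to 28635953, minus strand), had the best mean rank percentile of the 83, 0.0841. Its peak ranked 12, 12 and 12 in the vehicle lists, 3, 153 and 93 with E2, 53, 123 and 68 under E2 plus fulvestrant, and 15, 2 and 9 with fulvestrant. The fold of the same peak was 16.0, 13 and 14.5 in vehicle, 45.1, 14.8 and 16.0 with E2, 13.7, 13.9 and 18.8 under E2 plus fulvestrant, and 13.9, 27.2 and 16.1 with fulvestrant. E2 replicate 1 and fulvestrant replicate 2 were high in fold, and the other 10 libraries overlapped between treatments. Leaving out those 2, every library without E2 ranked Rps7 within the first 15 peaks and every library with E2 ranked it 53 or lower, while the fold ranges overlapped. At the summit, 178 to 219 fragments stood in vehicle over a local background of 11.8 to 12.8, and 200 and 222 fragments in E2 replicates 2 and 3 over 12.6 and 12.9.

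Rpl27, a large-subunit protein gene, came next with a mean rank percentile of 0.11. It ranked 21, 15 and 10 in vehicle, 7, 197 and 144 with E2, 71, 125 and 116 under E2 plus fulvestrant, and 21, 3 and 10 with fulvestrant. Its fold was 11.7, 11.4 and 14.3 in vehicle, 40.8, 12.7 and 13.5 with E2, 11.1, 13.4 and 14.6 under E2 plus fulvestrant, and 11.1, 27.4 and 16.0 with fulvestrant. As for Rps7, the lists with E2 placed the peak lower, except in E2 replicate 1, and the fold did not separate the treatments.

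Rps6, the small-subunit protein that S6 kinases phosphorylate, had a mean rank percentile of 0.294. Its ranks were 53, 49 and 28 in vehicle, 28, 435 and 493 with E2, 206, 314 and 257 under E2 plus fulvestrant, and 56, 13 and 46 with fulvestrant. Rpl29 had a mean rank percentile of 0.309 and a fold of 7.83 to 29.5, and Rps14, whose TSS lies within 1000 bp of that of Ndst1, had a mean of 0.347 and a fold of 8.45 to 32. For all 5 genes the highest fold was that of E2 replicate 1.

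**Figure D3:**
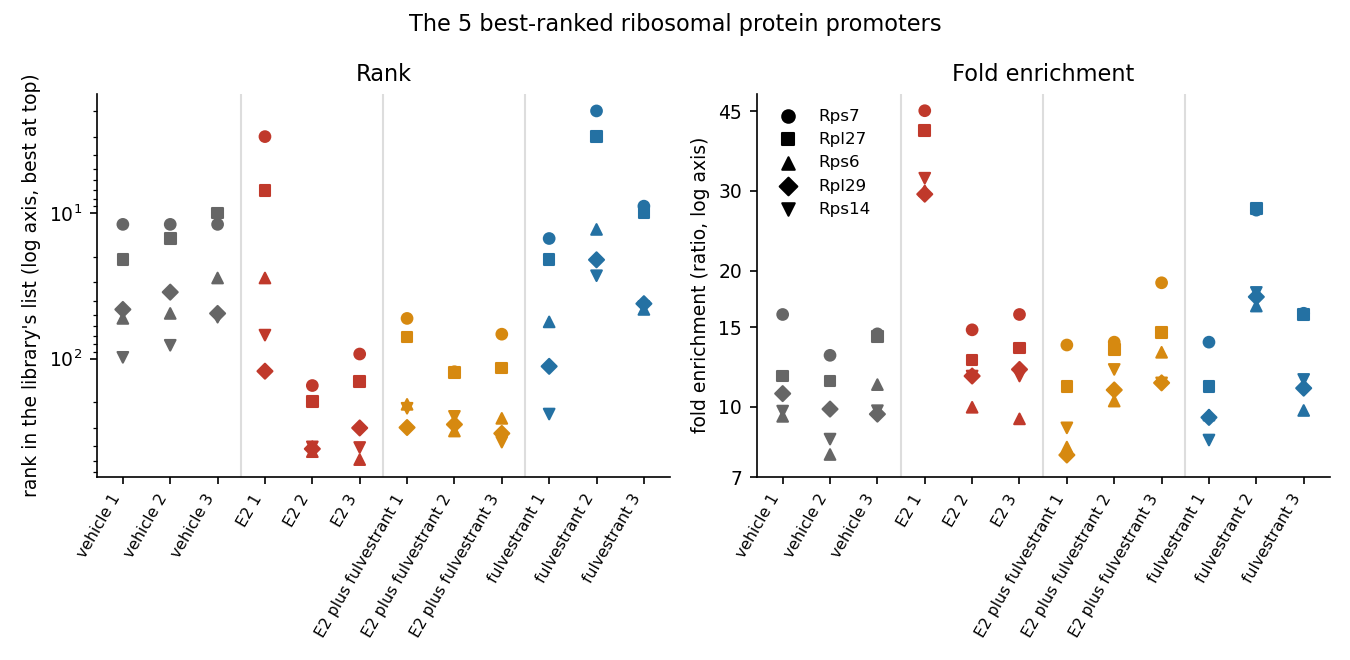
Rank (left, log axis, best at the top) and fold enrichment (right, log axis) of the promoter peak of Rps7, Rpl27, Rps6, Rpl29 and Rps14 in each of the 12 libraries. E2 replicates 2 and 3 and the 3 libraries with E2 plus fulvestrant lie below the vehicle libraries in rank, while their fold overlaps the vehicle range, and E2 replicate 1 and fulvestrant replicate 2 are high in fold.

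The promoters of members at both ends of this order are shown from RefSeq (GRCm38.p6), which matched 63 of the 83 genes. Each runs from 150 bases before to 20 bases after the RefSeq start, 5′ to 3′ on the gene's strand. Capitals mark CCGGAAG, the core of a site for ETS factors, on either strand, and a C with at least 4 pyrimidines after it that starts within 5 bases of the start. Rps7, Rpl27 and Rps6 are shown as the best-ranked members in this table, Rpl24 for its ranks with and without E2 given further on, and Rpl3l and Rpl10l as members without a peak.
Rps7 (chr12:28635934-28636103, minus strand): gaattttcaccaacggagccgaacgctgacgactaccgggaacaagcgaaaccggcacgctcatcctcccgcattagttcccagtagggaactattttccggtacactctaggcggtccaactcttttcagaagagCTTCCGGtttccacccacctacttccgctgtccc
Rpl27 (chr11:101442095-101442264, plus strand): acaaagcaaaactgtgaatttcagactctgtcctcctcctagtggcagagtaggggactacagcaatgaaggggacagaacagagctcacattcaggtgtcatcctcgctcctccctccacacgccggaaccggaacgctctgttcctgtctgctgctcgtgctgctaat
Rps6 (chr4:86857348-86857517, minus strand): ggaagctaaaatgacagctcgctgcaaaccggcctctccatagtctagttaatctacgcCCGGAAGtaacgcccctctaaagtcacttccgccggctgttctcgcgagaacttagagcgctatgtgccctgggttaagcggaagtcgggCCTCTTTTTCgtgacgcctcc
Rpl24 (chr16:55966125-55966294, plus strand): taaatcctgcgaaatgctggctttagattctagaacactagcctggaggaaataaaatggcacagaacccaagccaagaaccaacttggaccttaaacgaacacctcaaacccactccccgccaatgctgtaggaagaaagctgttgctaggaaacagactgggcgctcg
Rpl3l (chr17:24727676-24727845, plus strand): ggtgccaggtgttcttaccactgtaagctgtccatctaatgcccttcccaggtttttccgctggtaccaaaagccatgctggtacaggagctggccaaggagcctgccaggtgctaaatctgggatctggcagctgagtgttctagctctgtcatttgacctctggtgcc
Rpl10l (chr12:66284382-66284551, minus strand): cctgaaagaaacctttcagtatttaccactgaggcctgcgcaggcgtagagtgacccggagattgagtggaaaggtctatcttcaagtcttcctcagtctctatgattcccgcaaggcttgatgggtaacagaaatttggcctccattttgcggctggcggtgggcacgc
The RefSeq start was the GENCODE gene start for Rps7, Rpl24 and Rpl10l, and lay 53 bases from it for Rpl27, 45 for Rps6 and 6 for Rpl3l. Rps7 and Rps6 each hold 1 ETS core in this stretch, and Rps6 also a pyrimidine tract at its RefSeq start. Neither Rpl27 nor Rpl24 holds either in the stretch shown. For Rpl27 that stretch ends before the GENCODE start, so a tract at the GENCODE start was not searched for.

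Motifs were counted over the whole 300-base RefSeq promoter (250 before to 50 after the start) of the 63 matched members and of 16522 protein-coding genes, on both strands and without masking the letters of 1 motif for another. The other 20 members were not matched. The ETS core CCGGAAG was in 24 of 63 member promoters (38.1%), against 12.3% of all promoters. A TOP-like start, by the rule above, was in 28 (44.4%), against 19.0%. The GC box GGGCGG was in 60.3% against 48.0%, AAGATGGC, the core of a YY1 site, in 7.94% against 3.29%, and the cyclic AMP response element TGACGTCA in 7.94% against 2.43%. CACGTG, the E-box that Myc binds, was in 7.94% against 8.11%, CCAAT in 30.2% against 38.7%, and TATAAA in 9.52% against 12.9%. The median GC content was 57% in both. Members with the ETS core had a median of 4.04 in mean rank percentile and members without it 8.92, and for a TOP-like start these were 6.89 and 8.07. The same split gave 2.69 and 7.85 for CACGTG and 3.75 and 8.02 for TGACGTCA, each present in only 5 members. It went the other way for AAGATGGC (8.92 and 7.72), TATAAA (16.4 and 7.45), CCAAT (8.07 and 7.58) and GGGCGG (7.85 and 7.71). Of these, AAGATGGC was present in only 5 members and TATAAA in 6. No split was made over all promoters, so the ETS core was not singled out.

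The ERE, the motif of ESR1 itself, was rare in all promoters and was not found in the 63 matched member promoters. It was searched as GGTCA half-sites facing each other across 3 bases, with at most 1 mismatch, and occurred in 0 of 63 member promoters and in 0.781% of all 16522. Within 100 bp of the summit, 0 of the 69 to 80 member peaks held an ERE in 11 libraries. In fulvestrant replicate 2 it was found at 1 of 79, the peak of Rps9. Among all promoter peaks the share was 0.648% to 1.08% per library. With shares this low and so few members, these counts do not set the members apart from other promoters.

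Member summits lay just downstream of the TSS. The median over members of the median summit position was 134 bp downstream, with quartiles of 84 and 195 bp, close to the 139 bp of all promoters with a peak. The position was downstream for 70 of 80 members (87.5%), against 69.3% of the 14985 promoters with a peak, and within 250 bp on either side for 66 (82.5%), against 60.6%. Position was measured from the gene's nearest basic TSS in each library, so a change of best-ranked peak or of TSS also enters its spread. Between libraries the median SD of this position was 53.8 bp over members and 137 bp over all promoters. It was wide at some members, such as Rpl10 (367 bp) and Rpl7 (344 bp). For Rps7 the position stayed between 69 and 142 bp downstream in all 12 libraries. Among the 10 members with an upstream summit was Rps16 at -360 bp, and the farthest downstream was Rpl35 at 568 bp. The peaks were broad, with a median width of 730 to 1610 bp per library against 521 to 976 bp for all promoter peaks. Where a promoter had a peak, its interval covered the TSS at 70.5% to 93.8% of members per library. The same share was 38.2% to 71.8% of all promoters with a peak.

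**Figure D4:**
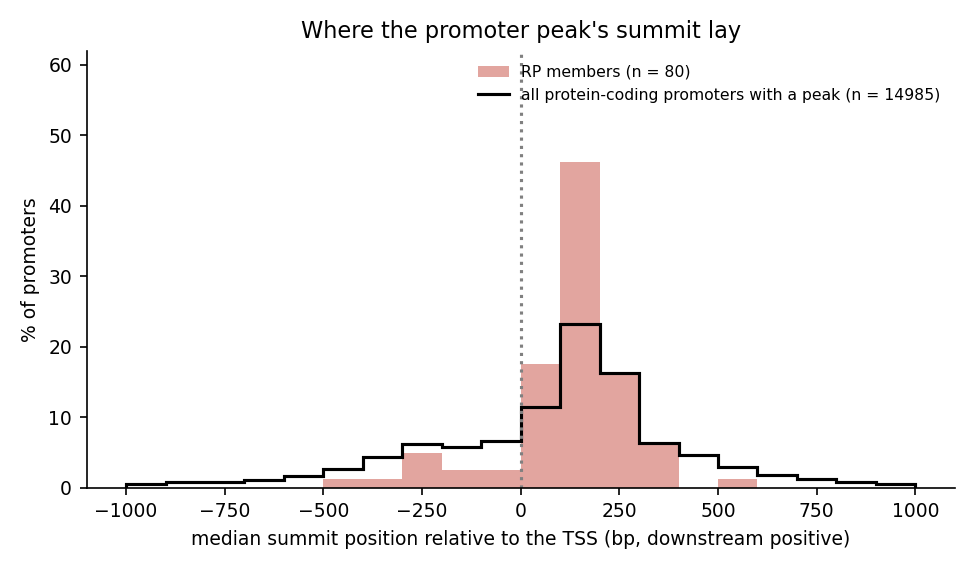
Median summit position over libraries relative to the TSS (bp, downstream positive, bins of 100 bp), as a percent of the 80 members with a peak (filled) and of all 14985 protein-coding promoters with a peak (line). The bin from 100 to 200 bp downstream holds 46.2% of members and 23.2% of all promoters.

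A neighbour shares some of these windows. The TSS of another protein-coding gene lay within 1000 bp for 15 members, among them Rps14 (Ndst1), Rpl9 (Lias), Rpl7a (Med22) and Rps18 (Vps52), and their peaks cannot be given to 1 gene. These 15 had a median of 5.5 in mean rank percentile and the other 68 had 7.85, and 54 of the 68 had a peak in all 12 lists.

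The stalk of the large subunit, which recruits the elongation factors, is built from Rplp0, Rplp1 and Rplp2, and the promoters of all 3 carried a peak in every list. Rplp0, the scaffold of the stalk, had a fold of 4.08, 3.51 and 2.79 in vehicle, 19.5, 5.69 and 5.57 with E2, 4.37, 4.59 and 5.02 under E2 plus fulvestrant, and 5.13, 11.1 and 6.02 with fulvestrant. The 3 vehicle libraries were the lowest of the 12, as at 3.14% of promoters. Its rank percentile was likewise poorest in vehicle (9.05, 13.6 and 26.4), where all 9 other libraries lay at 0.414 to 8.03, an order found at 0.651% of promoters. With relative log2 fold, the log2 fold minus the median of the library over the 5992 promoters that had a peak in all 12, Rplp0 differed by 0.46 between E2 and vehicle (SE 0.21) and by 0.66 between fulvestrant and vehicle (SE 0.21). Neither passed limma's test, with adjusted p of 0.674 and 0.997. Without E2 replicate 1 and fulvestrant replicate 2 these differences were 0.26 (SE 0.21) and 0.57 (SE 0.21).

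Rplp2 had a fold of 4.74, 3.01 and 2.5 in vehicle, 5.88, 4.69 and 6.57 with E2, 4.65, 5.48 and 6.34 under E2 plus fulvestrant, and 4.64, 4.81 and 3.35 with fulvestrant, with vehicle and E2 overlapping. Rplp1 was weaker, at 4.86, 2.76 and 2.33 in vehicle, 3.86, 3.99 and 5.65 with E2, 3.04, 3.32 and 3.17 under E2 plus fulvestrant, and 3.42, 4.8 and 3.83 with fulvestrant. Its summit was not at a fixed place, lying upstream of the TSS in 7 libraries and downstream in 5.

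At the low end, the 5 members with the poorest mean rank percentile among those with a peak in all 12 lists were Rpl22l1 (31.7), Rps24 (28.9), Rpl36al (23.4), Rps21 (22.4) and Rplp1 (21.7). Rps24, a small-subunit protein gene, had a fold of 2.62, 1.88 and 2.52 in vehicle, 15.2, 2.74 and 2.8 with E2, 1.93, 4.6 and 2.56 under E2 plus fulvestrant, and 3.94, 6.98 and 2.35 with fulvestrant. E2 replicate 1 and fulvestrant replicate 2 were the highest of the 12. Rpl22l1 had a fold of 1.91 to 6.69 without an order by treatment.

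The share of ribosomal protein promoters with a peak overlapped between treatments. It was 96.4%, 96.4% and 95.2% in vehicle, 83.1%, 96.4% and 96.4% with E2, 94.0%, 96.4% and 95.2% under E2 plus fulvestrant, and 96.4%, 95.2% and 96.4% with fulvestrant. E2 minus vehicle was -4.02 percentage points (exact permutation p = 1.0, two-sided), and 0.402 without E2 replicate 1. No member had a peak in 3 of 3 E2 libraries and 0 of 3 vehicle libraries, against 1.07% of all promoters, and none in 3 of 3 E2 and 0 of 3 E2 plus fulvestrant libraries, against 0.798%. With 3 libraries against 3 the smallest exact p is 0.1, so such a comparison cannot pass 0.05, and the share was near its ceiling in most libraries.

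A stricter peak minimum moved the share off that ceiling. Counting peaks that reach a −log10 q of 10, the share was 80.7%, 65.1% and 61.4% in vehicle, 77.1%, 89.2% and 94.0% with E2, 66.3%, 73.5% and 73.5% under E2 plus fulvestrant, and 83.1%, 88.0% and 75.9% with fulvestrant. E2 minus vehicle was then 17.7 points (exact permutation p = 0.2) and E2 minus E2 plus fulvestrant 15.7 points (exact permutation p = 0.1), the opposite sign to that of the full lists. All protein-coding promoters stood at 9.94% to 21.0% in vehicle and 25.1% to 39.5% with E2 by the same minimum. Under E2 plus fulvestrant they stood at 15.8% to 17.0%, and with fulvestrant at 17.8% to 37.9%. The higher share with E2 than in vehicle or under E2 plus fulvestrant was thus not particular to the members.

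The median relative log2 fold over the 67 members with a peak in all 12 lists was 0.32, 0.34 and 0.38 in vehicle, 0.28, 0.29 and 0.29 with E2, 0.12, 0.33 and 0.59 under E2 plus fulvestrant, and 0.30, 0.53 and 0.46 with fulvestrant. The 3 E2 libraries lay below the 3 vehicle libraries, by 0.06 on the log2 scale (exact permutation p = 0.1, adjusted p = 0.6 over 6 comparisons). Every library's median was above 0, the median promoter, and 24 of the 67 were in the top 10% of the 5992 promoters by mean relative log2 fold. The median rank percentile differed by 0.406 between E2 and vehicle (exact permutation p = 1.0), by -0.821 between E2 and E2 plus fulvestrant (exact permutation p = 0.6), and by -1.49 between fulvestrant and vehicle (exact permutation p = 0.3). Leaving out E2 replicate 1 and fulvestrant replicate 2, these became 1.33, 0.104 and -0.509 (exact permutation p = 0.5, 0.9 and 0.6). The 6 libraries with E2 and the 6 without differed by 1.56 (exact permutation p = 0.171, adjusted p = 0.615).

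Gene by gene, limma called 0 of the 5992 promoters (0%) in any of the 6 contrasts at an adjusted p of 0.05, and so 0 of 67 members. At an unadjusted p under 0.05, 6 of 67 members passed for E2 minus vehicle, 4 of them negative, where 7.26% of all promoters did. For E2 minus E2 plus fulvestrant it was 5 members against 6.69%. The E2 minus vehicle difference was positive for 20 of 67 members, against 47.6% of all promoters, with a median of -0.15 over members and -0.02 over all promoters. Without E2 replicate 1 and fulvestrant replicate 2 it was positive for 26 of 77 members, against 48.4%, and the median over members was -0.09. With those 2 left out, limma called 4, 6 and 15 of 6547 promoters for E2 minus vehicle, E2 plus fulvestrant minus vehicle, and E2 against no E2, with 0 of 77 members among them.

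The lowest E2 minus vehicle differences of relative log2 fold were those of the large-subunit gene Rpl6 (-0.78, SE 0.26), Rps4x of the small subunit (-0.70, SE 0.27) and Rpl8 (-0.70, SE 0.34), with adjusted p of 0.673 to 0.674 in limma. These were -0.53, -0.355 and -0.21 without E2 replicate 1 and fulvestrant replicate 2, and the lowest were then Rpl5 (-0.55), Rpl6 and Rps3a1 (-0.52). For Rpl6 the fold was 8.49, 8.13 and 7.19 in vehicle and 10.3, 7.89 and 7.25 with E2. Those values overlap, and the median fold over all promoters with a peak was 3.93 to 8.02 in the E2 libraries and 3.23 to 3.66 in vehicle. The highest were Rpl35 (0.58, SE 0.27) and Rplp0 (0.46, SE 0.21), with an adjusted p of 0.674 each in limma, and fell to 0.35 and 0.26 without the same pair of libraries. Rpl35 had a fold of 2.59, 2.25 and 3.12 in vehicle and 17.3, 4.51 and 4.69 with E2. The groups did not overlap, and the same order of fold held at 31 of 67 members (46.3%) and at 51.6% of all promoters.

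Ranks were compared next, as rank percentiles of each list, so that ranked above means a lower percentile. All vehicle libraries ranked above all E2 libraries for 11 of 67 members (16.4%), against 1.79% of the 5992 promoters. These were Rpl6, Rpl7, Rpl7a, Rpl8, Rpl9, Rpl11, Rpl23, Rpl24, Rpl37, Rps4x and Rps18. Without E2 replicate 1 it was 25 of 76 (32.9%), against 5.31%. The reverse order held for 4 members (5.97%), among them Rpl35, Rplp0 and Rps25, against 10.5% of all promoters. When peaks were ranked among promoter peaks alone, an alternative added after the data had been seen, vehicle lay above E2 for 7 members, against 2.04%.

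The background share was higher among the best-ranked promoters. Among the 78 protein-coding promoters with a mean rank percentile under 1, a stratum also added after seeing the data, vehicle ranked above E2 for 4 of 13 members and for 23.1% of all 78. That mean covers all 12 libraries, those compared included, so the stratum is not independent of the order counted. Against E2 plus fulvestrant, vehicle ranked above for 22 of 67 members (32.8%), against 9.6%, and in that best-ranked stratum for 10 of 13 members, against 47.4%. Among promoter peaks alone it was 4 members, against 3.76%.

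Every E2 plus fulvestrant library ranked above every vehicle library for 1 member, Rplp0, against 2.25% of promoters. Every E2 library ranked above every E2 plus fulvestrant library for 10 members (14.9%), among them Rpl30, Rpl36al, Rps15, Rps25 and Rps29, against 18.1%, and the reverse held for none. Fulvestrant ranked above vehicle for Rpl27a, Rpl28, Rpl35a and Rplp0, 5.97% of members against 11.2%.

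Rpl24 and Rpl7a were the 2 members that every library without E2 ranked above every library with E2, against 0.317% of promoters. Rpl24, a large-subunit protein at the interface of the subunits, ranked 113, 215 and 57 in vehicle and 111, 45 and 58 with fulvestrant, and 922, 773 and 1067 with E2 and 906, 521 and 554 with E2 plus fulvestrant. Its fold in vehicle, 9.3, 7.02 and 9.83, overlapped that with E2, 19.8, 9.34 and 8.89. Rpl7a ranked 163, 147 and 82 in vehicle, 276, 33 and 105 with fulvestrant, 851, 539 and 661 with E2, and 534, 524 and 470 with E2 plus fulvestrant. Without E2 replicate 1 and fulvestrant replicate 2, Rps6, Rps7, Rpl27 and Rpl29 joined them, making 6 members (8.96%), against 1.12%.

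The number of members among the 1000 best-ranked peaks restates these ranks, was added after the data had been seen and comes from lists of unequal length, so it is given as a description. It was 30, 29 and 33 in vehicle, 26, 13 and 16 with E2, 17, 23 and 23 under E2 plus fulvestrant, and 26, 41 and 35 with fulvestrant. The mean was 19.7 ± 5.05 (SD, n = 6) in libraries with E2 and 32.3 ± 5.28 (SD, n = 6) without, a difference of -12.7, and of -12.2 without E2 replicate 1 and fulvestrant replicate 2. E2 and E2 plus fulvestrant overlapped, with a difference of -2.67. Without E2 replicate 1 it was -6.5, and the E2 counts of 13 and 16 then lay below those under E2 plus fulvestrant.

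The count over all genes was lower in 5 of the 6 libraries with E2 than in any library without it, and E2 replicate 1 was above all vehicle libraries. Protein-coding genes with a promoter peak among the best 1000 numbered 791, 768 and 711 in vehicle, 911, 227 and 466 with E2, 525, 232 and 217 under E2 plus fulvestrant, and 791, 951 and 728 with fulvestrant. The difference with E2 was -360.0, and -424.0 without E2 replicate 1 and fulvestrant replicate 2. In E2 replicate 2, 13 of the 227 were members, and in vehicle replicate 1, 30 of 791. The fragments behind the member peaks overlapped between treatments. Over the 65 members whose counts could be recovered in all 12 libraries, the median at the summit was 71, 59 and 51 fragments in vehicle, 76, 69 and 92 with E2, 55, 63 and 61 under E2 plus fulvestrant, and 66, 98 and 71 with fulvestrant. Their median local background was 9.31 to 12.3 fragments in 11 libraries and 4.27 in E2 replicate 1. Rpl7a, which every library with E2 ranked lower, had 121, 99 and 117 fragments in vehicle and 116, 129 and 138 with E2.

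**Figure D5:**
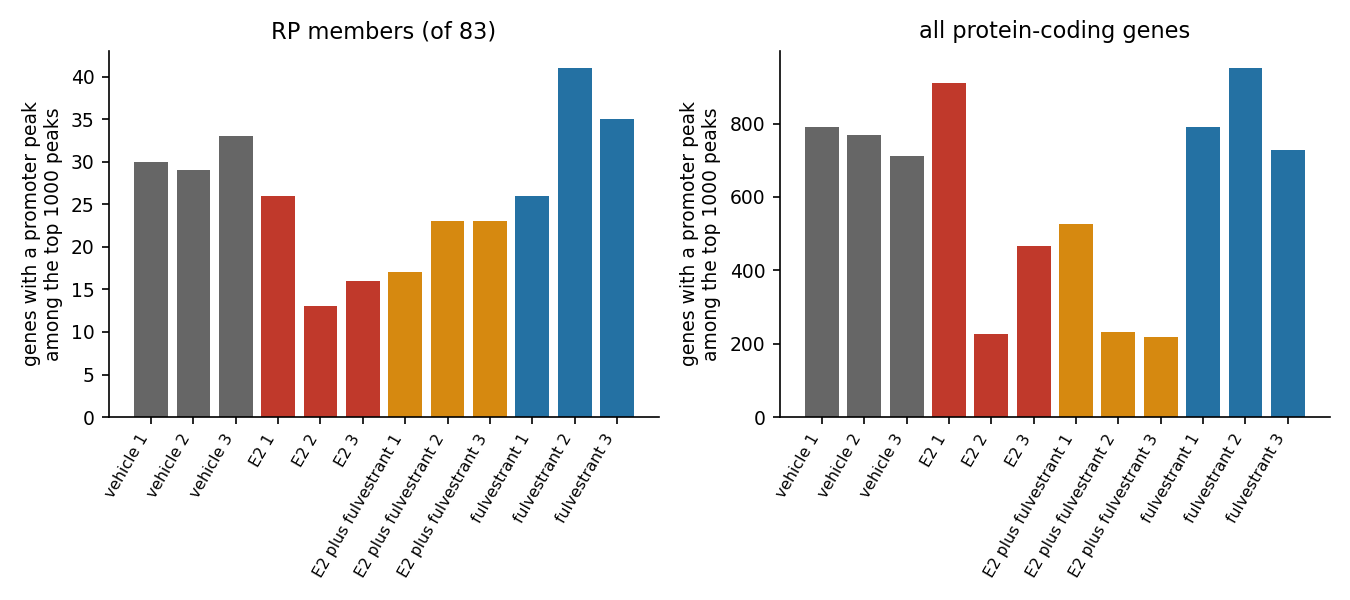
Number of members (left, of 83) and of all protein-coding genes (right) with a promoter peak among the 1000 best-ranked peaks of each of the 12 libraries. Libraries with E2 hold 13 to 26 members and libraries without E2 hold 26 to 41, and the counts over all genes show the same order apart from E2 replicate 1.

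Other housekeeping gene lists were described by the same counts. A peak in all 12 libraries was present at 41 of 75 mitochondrial ribosomal protein genes (54.7%), 25 of 39 proteasome genes (64.1%), 35 of 55 initiation factor genes (63.6%) and 11 of 14 further translation genes (78.6%). The median of the mean rank percentile was 7.73 for the cytosolic ribosomal proteins, 23.3 for the mitochondrial ones, 17.2 for the proteasome, 17.5 for initiation factors and 13.1 for the further translation genes. Among the last, Eef1b2 (1.05) and Eef1a1 (1.64), which encode subunits of the elongation factor that brings tRNA to the ribosome, had means near those of the best members. Fau, which encodes a ribosomal protein fused to a ubiquitin-like protein but carries another name, had a mean of 18.6. Rpsa, a small-subunit protein gene outside the naming rule, had a peak in all 12 lists and a mean of 20.4. No test was made between these lists.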

How the data were processed

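ESR1 ChIP-Seq of 12 libraries was used. The authors' pipeline, by the methods and the submitters' processing notes, ran from Trimmomatic 0.39 through Bowtie2 (mm10) and Picard 2.21.4, which removed duplicates, to MACS2 peak calling with all remaining reads kept. The authors also filtered blacklisted regions; if this preceded deposit is not given in the sources used here. The deposited peak lists give the fold enrichment at the summit as a ratio, the −log10 p-value and −log10 q-value within a list, and a score, which was not used. A p or q belongs to its own list, so the main measures used peak presence, ranks, or fold after subtraction of the library median. Uncentred fold and shares at a fixed −log10 q minimum were also set side by side, without adjustment for depth. Read depth is known only through the recovered fragments (for a −log10 p of at most 290).

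Peaks were assigned to GENCODE vM21 basic TSSs. Peaks of all 12 libraries lay within the GRCm38 chromosome lengths. Library measures were compared by two-sided exact permutation tests with Benjamini-Hochberg adjustment over 6 comparisons, and promoters with a peak in all 12 lists by limma 3.58.1 (R 4.3.3) on log2 fold centred on the library median, 4 treatment means, adjusted over 5992 promoters. The study modelled read counts with batch removed; peak lists hold no counts and the labels no batch. Tables were handled with pandas 2.3.3 and pysam 0.24.0.

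The members and lists were chosen with earlier results of these data known. Named were the 5 best and 5 poorest mean rank percentiles among members in all 12 lists, members without a full set of peaks, the 3 largest and 3 smallest E2 minus vehicle differences, the stalk genes and 7 paralogs; Rps4l is not among the annotated genes used. Genes named beyond these (Rpl24, Rpl7a and those in counts) were chosen after their values were seen. Some members and listed genes are counted but not reported by name here. Alternatives are described in the closing section.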

Additional observations from a re-analysis of the deposited data

How the results depend on the processing

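Of 348 alternative values for the library measures, none had an adjusted p under 0.05 (smallest 0.0649). Comparisons of 3 libraries against 3 or fewer could not pass 0.05 in any setting, as their smallest exact p is 0.1. For them the absence of a pass tells nothing about stability. Of the 348 values, 46 had the opposite sign to the value reported, and the cause was not tested. Signs turned as follows. With peaks that overlap a TSS, the share differed by 6.02 (E2 minus vehicle), 3.21 (E2 minus E2 plus fulvestrant), 2.81 (E2 plus fulvestrant minus vehicle), 1.0 (E2 against no E2) and 10.0 points (E2 effect without minus with fulvestrant), and relative log2 fold by -0.0592 (E2 plus fulvestrant minus vehicle), -0.0571 (fulvestrant minus vehicle) and -0.287 (difference of E2 effects). For peaks reaching a −log10 q of 10, the share differed by 17.7, 15.7, 2.01, 3.21 and 28.9 points in the same order, the rank percentile by -24.4 (E2 minus vehicle), -6.56 (E2 plus fulvestrant minus vehicle) and -2.78 (E2 against no E2), and relative log2 fold by -0.0577, -0.0449 and -0.144. For those reaching 1.3, the rank percentile for E2 minus vehicle was -0.45 and relative log2 fold for E2 plus fulvestrant minus vehicle -0.00137. Summits within 500 bp gave a difference of E2 effects of -0.1 in relative log2 fold. Without repeat-masked peaks, E2 minus E2 plus fulvestrant was 0.399 in rank percentile, and without the paralogs E2 minus vehicle was -0.0777. Ranked among promoters, rank percentile differed by 5.03 (E2 minus E2 plus fulvestrant), -1.26 (E2 plus fulvestrant minus vehicle) and 1.33 (difference of E2 effects). Without E2 replicate 1 and fulvestrant replicate 2, the share differed by 0.402, 1.2 and 1.61 (E2 minus vehicle, E2 minus E2 plus fulvestrant, difference of E2 effects), rank percentile by 0.104 (E2 minus E2 plus fulvestrant), relative log2 fold by -0.00116 (E2 plus fulvestrant minus vehicle) and -0.00814 (difference of E2 effects), and limma called 4, 6 and 15 promoters (E2 minus vehicle, E2 plus fulvestrant minus vehicle, E2 against no E2), no member among them.

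Leaving out 1 library at a time, the ranges that crossed 0 were -6.22 to 0.402, -5.42 to 1.2, -5.42 to 1.2 and -0.402 to 0.402 points in share (E2 minus vehicle, E2 minus E2 plus fulvestrant, difference of E2 effects, fulvestrant minus vehicle), -0.748 to 1.33 and -1.97 to 0.297 in rank percentile (the first 2; fulvestrant minus vehicle ran from -2.47 to -0.509, the latter without fulvestrant replicate 2), and -0.164 to 0.0525, -0.103 to 0.114 and -0.0826 to 0.132 in relative log2 fold (E2 minus E2 plus fulvestrant, E2 plus fulvestrant minus vehicle, difference of E2 effects). limma called 0 to 4 promoters for E2 plus fulvestrant minus vehicle and 0 to 11 for E2 against no E2, all of them without E2 replicate 1. The count among the top 1000 peaks differed by -13.9 to -10.9 in the same exercise.

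The deviations of same-numbered libraries had correlations of -0.374 to 0.315 (18 pairs, median 0.0113, 4 over 0.1). For libraries of different number these were -0.43 to 0.497 (36 pairs, median -0.00712, 5 over 0.1). Pairs within replicate number 3 were all positive, at 0.000461 to 0.315, and whether those libraries share a source was not tested. The labels do not say that a number marks a mouse or a batch, so the numbers were not taken to pair libraries. The top 1000 difference of -12.7 had an adjusted exact permutation p of 0.026, and 0.111 with a replicate block (labels permuted within number), but the count was chosen after the ranks were seen and neither p is independent support. Over all genes the adjusted exact permutation p was 0.0779. Without E2 replicate 1 and fulvestrant replicate 2 it was 0.0476 both for members and for all genes. These values do not set the members apart from other genes. A replicate block left limma at 0 calls.

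Depth is not in the lists, so a missing peak is a value under the authors' threshold and does not by itself show an absence of binding.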
